A study of Mus musculus with 36 samples.

Results

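The pyruvate dehydrogenase complex and the enzymes that switch it on and off were followed through the day in livers of mice kept under chronic intermittent hypoxia (IH) or under normoxia (control). The genes were chosen by symbol: the subunits Pdha1, Pdhb, Dlat, Dld and Pdhx, the kinases Pdk1, Pdk2 and Pdk4, and the phosphatase Pdp2. All 9 were found among the 24066 symbols listed once in the deposited tables. All 9 were also among the 13215 genes tested, which averaged at least 0.1 FPKM (fragments per transcript length and library size). The mice were male, wild-type, of the strain C57BL/6JRj and 16 weeks old, and lived 5 to a cage with 12 h of light, which began at Zeitgeber time (ZT) 0, and with chow always available. The IH mice breathed 60 cycles of falling and returning oxygen per hour, between 21% and 5% inspired oxygen, from ZT0 to ZT8 on every day of 4 weeks. Control mice were given cycles of air over air instead. At each of ZT0, ZT4, ZT8, ZT12, ZT16 and ZT20, 3 mice per condition gave 1 library each, so that 36 polyadenylated RNA libraries were compared, 18 per condition.

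The pyruvate dehydrogenase complex sits in the mitochondrial matrix and turns pyruvate into acetyl-CoA, the step that commits carbon from carbohydrate to the tricarboxylic acid cycle or to fat synthesis. Kinases of the PDK family phosphorylate the E1α subunit and shut the complex off, and the phosphatases remove the phosphate and reopen it. In the liver Pdk2 and Pdk4 are known to rise in fasting, when pyruvate is spared for glucose synthesis, and Pdk1 is a known target of the hypoxia-inducible factor HIF-1. Messenger levels were measured here, not the phosphorylation or the activity of the complex.

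The libraries were liver-like by their markers, since all 6 hepatocyte markers were detected and summed to between 39364 and 66016 FPKM. The 4 muscle markers summed to at most 0.0628 FPKM and the 3 adipocyte markers to at most 1.64. The 3 pancreas markers summed to between 5.29 and 25.4 FPKM, where Cela1 averaged 12.6 in control and 13.7 in IH. The 2 erythroid markers found summed to between 40.4 and 85.5 FPKM. In whole tissue, fewer cells of a type and less RNA per cell cannot be told apart. One library stood apart, control ZT12 replicate 2. Its FPKM over all rows summed to 808274 against 561964 to 626371 in the others, its 5 leukocyte markers summed to 205 FPKM against at most 13.9 in the other 35 libraries, and its 5 Kupffer cell markers to 125 against at most 54.2. It was 1 of 3 libraries, with IH ZT0 replicate 2 and control ZT16 replicate 3, in which the acute-phase gene Saa1 was above 10000 FPKM. Of the markers of other cell types, Lyve1 of endothelial cells was higher in IH over all time points (difference in log2(FPKM + 1) 0.31, standard error (SE) 0.06, limma adjusted p = 0.018). The other endothelial markers were not called, with differences from -0.00036 (Clec4g) to 0.10 (Kdr). The 5 Kupffer cell markers were all lower in IH, from -0.13 (Adgre1) to -0.40 (Cd5l), with control ZT12 replicate 2 included. None of them was called (limma adjusted p from 0.36 to 0.50). Of the hepatocyte markers, Apoa1 was higher at ZT4 and ZT8 (0.34, SE 0.06, adjusted p = 0.012). The other hepatocyte markers were not called there, but all had the same sign. They ran from 0.03 (Serpina1a) to 0.24 (Ttr, limma adjusted p = 0.090). Summed, the 6 markers were at 53641 to 56764 FPKM at ZT4 in IH against 46075 to 47648 in control. At ZT8 they were at 52294 to 54661 FPKM in IH against 39364 to 51437 in control. The part of this in the calls at ZT4 and ZT8 was not tested. The tests were repeated without these 3 libraries (16 control and 17 IH libraries left), and those values are given beside the results. The part that leukocytes or the acute-phase response had in any value was not tested.

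By level the genes fell into 3 tiers, and FPKM is scaled to length, so levels can be set side by side. Pdhb (mean over the 18 control libraries 68.2 FPKM), Pdk2 (49.4), Dld (44.0) and Pdha1 (37.1) made the highest tier, and each overlapped its neighbour in range. Pdk1 (12.5), Dlat (10.4) and Pdhx (10.3) followed and overlapped one another. Pdp2 (2.55) and Pdk4 (2.29) were lowest and overlapped too. In either condition, the highest value of each tier lay below the lowest value of the tier above it. The order in IH was the same except that Pdk4 (2.49 FPKM) stood above Pdp2 (2.38).

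Pdhb, which encodes the β subunit of the E1 decarboxylase, lies on chromosome 14 at chr14:8165996-8173025 (mm10, minus strand). It was the one subunit that passed the tests of level, with more transcript in IH. The sequence before its RefSeq start (chr14:8173026-8173242, GRCm38.p6, minus strand) is shown with those of the kinases further on, because these are the genes whose level or rhythm the results turn on. Capitals in these sequences mark the letters CACGTG (an E-box, the site of the clock factors CLOCK and BMAL1), ACGTG (the core of the site of HIF) and TGACG (part of the site of CREB) on either strand.
Pdhb: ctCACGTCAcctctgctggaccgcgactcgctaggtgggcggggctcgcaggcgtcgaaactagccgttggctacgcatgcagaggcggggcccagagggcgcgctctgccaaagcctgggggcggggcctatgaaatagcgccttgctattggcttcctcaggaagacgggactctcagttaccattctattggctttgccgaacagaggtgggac

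In control, Pdhb was at 56.2, 64.4 and 54.8 FPKM at ZT0, 61.5, 58.2 and 56.4 at ZT4, and 78.6, 75.2 and 83.9 at ZT8. It was at 80.6, 75.5 and 85.2 FPKM at ZT12, 75.7, 69.6 and 62.2 at ZT16, and 63.4, 65.0 and 61.7 at ZT20. The control values were thus high at ZT8 and ZT12 and low at ZT0 and ZT4, with no overlap between these pairs of time points. In IH it was at 74.8, 56.7 and 71.0 FPKM at ZT0, 80.0, 77.0 and 78.5 at ZT4, and 81.8, 85.1 and 85.5 at ZT8. At ZT12 it was at 91.6, 94.7 and 95.4 FPKM, at ZT16 at 80.6, 75.4 and 84.8, and at ZT20 at 71.2, 64.0 and 79.2. All IH values were above all control values at ZT4 and at ZT12, and the ranges overlapped at the other time points.

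Over all time points Pdhb was higher in IH by 0.22 on the scale of log2(FPKM + 1), with an SE of 0.04 (limma, adjusted p = 0.0038, n = 18 per condition), a ratio of mean FPKM of 1.16. The IH value was the higher one in 16 of 18 pairs of mice with the same time point and number. Same-numbered mice are independent animals, so such counts depend on the numbering. It was the only 1 of the 9 genes called higher over all time points, where 0.303% of the 13215 genes were called higher and 0.053% lower, and none of the 9 was lower. Without each library in turn the adjusted p stayed at or below 0.0096, and without the 3 libraries with high Saa1 it was 0.0010. At ZT4 and ZT8, within the daily hypoxia, the difference was 0.25 (SE 0.06, adjusted p = 0.031, n = 6 per condition, higher in 6 of 6). This call was lost with libraries rescaled to a common sum (0.23, adjusted p = 0.055), by the median of their gene ratios (0.18, adjusted p = 0.054) or by quantile normalization (0.17, adjusted p = 0.086), and with no filter on low values (adjusted p = 0.051). It was also lost when any 1 of the 6 libraries of ZT4, or IH ZT8 replicate 2, was left out, with an adjusted p of up to 0.078.

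The other subunits moved less. Pdha1, the E1α subunit that the kinases phosphorylate, lies on chromosome X at chrX:160122209-160138413 (mm10, minus strand) and shares 603 exonic bases with Map3k15 on the other strand, which reached at most 0.362 FPKM. It ran from 22.5 to 46.5 FPKM in control (median 36.8) and from 35.9 to 46.7 in IH (median 42.4). The lowest control value was that of control ZT12 replicate 2, and the others began at 31.8 FPKM. All IH values were above all control values at ZT0, at ZT4 (37.8, 32.6 and 32.8 FPKM in control, 43.8, 43.1 and 40.6 in IH) and at ZT16. Its difference over all time points was 0.18 (SE 0.06, adjusted p = 0.25), and IH was above control in 13 of 18 such pairs. It was 0.11 (SE 0.04, adjusted p = 0.17) without the 3 libraries with high Saa1.

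Dlat, the E2 acetyltransferase that forms the core (chr9:50634633-50659780, mm10, minus strand), ran from 6.03 to 14.4 FPKM in control (median 10.1) and from 8.85 to 16.4 in IH (median 11.8). All IH values were above all control values at ZT0, ZT4 and ZT16, and at ZT12 the order of the means was the other way (10.7 FPKM in control, 10.0 in IH). The difference over all time points was 0.23 (SE 0.07, adjusted p = 0.20). It passed only without control ZT12 replicate 1, the highest control value (0.27, adjusted p = 0.038), and no share of all genes is given for that omission. Without control ZT12 replicate 2, the lowest control value, the difference was 0.19 and did not pass. Without the 3 libraries with high Saa1 it was 0.18 (adjusted p = 0.20).

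Dld, the E3 dihydrolipoamide dehydrogenase that the related α-ketoacid complexes share (chr12:31331277-31351453, mm10, minus strand), moved little over the day. It ran from 31.5 to 50.8 FPKM in control and from 40.5 to 50.2 in IH, and the ranges overlapped at every time point. The largest of its group means was 1.21 times the smallest in control (1.09 without control ZT12 replicate 2 and control ZT16 replicate 3) and 1.12 times in IH. The difference over all time points was 0.06 (SE 0.04, adjusted p = 0.56), and 0.02 (adjusted p = 0.75) without the 3 libraries with high Saa1.

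Pdhx, which tethers E3 to the core (chr2:103021075-103073513, mm10, minus strand), was at 8.83, 9.83 and 9.62 FPKM at ZT0 in control, 11.7, 12.1 and 12.2 at ZT8, and 8.57, 9.88 and 8.16 at ZT20. In IH it was at 10.9, 10.2 and 8.69 FPKM at ZT0, 11.0, 10.2 and 11.3 at ZT8, and 10.1, 9.82 and 10.2 at ZT20. The IH values were all below the control values at ZT8, the one time point without overlap. The difference over all time points was 0.04 (SE 0.04, adjusted p = 0.71), and 0.01 (adjusted p = 0.96) without the 3 libraries with high Saa1.

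**Figure D1:**
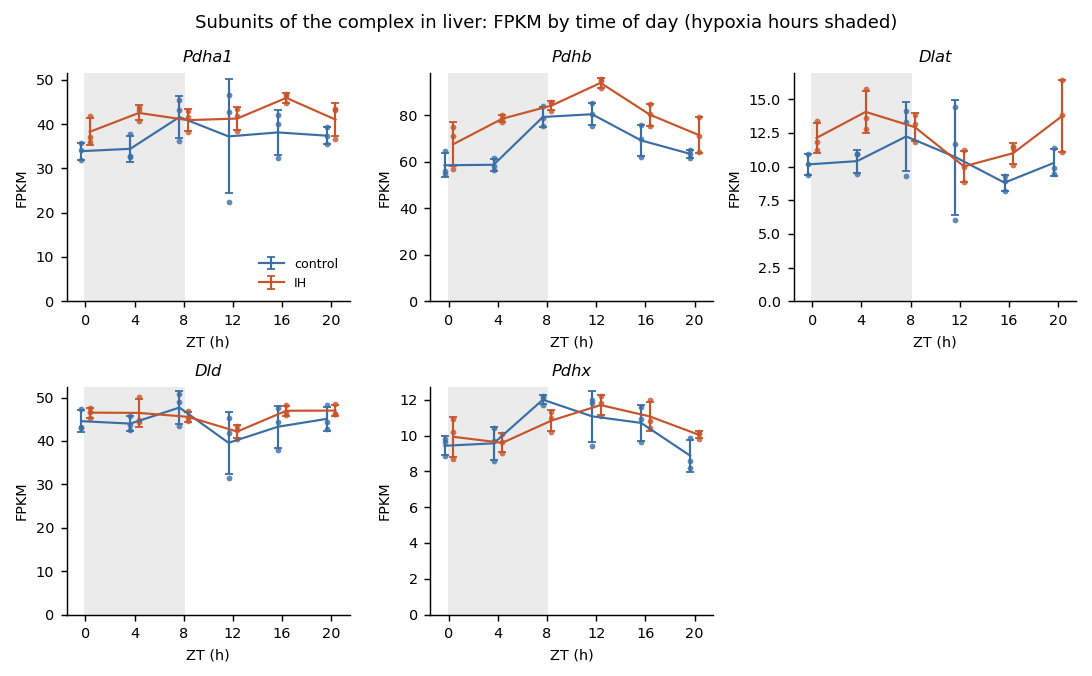
FPKM of the 5 subunits (vertical axes, from 0) against ZT in hours (horizontal axes), with each mouse as a point, and the mean and SD of 3 mice as a line with bars for control (blue) and IH (orange); hours of hypoxia are shaded. The mean of Pdhb is higher in IH at every time point and peaks near ZT12 in both conditions, while Dld stays nearly level, and the low control points at ZT12 are those of replicate 2.

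Pdk1 encodes a kinase that, beside the sites common to the family, can phosphorylate a further site of E1α. It lies at chr2:71873224-71903858 (mm10, plus strand). The bases before its first RefSeq start (chr2:71872974-71873223, GRCm38.p6, plus strand) hold none of the marked motifs.
Pdk1: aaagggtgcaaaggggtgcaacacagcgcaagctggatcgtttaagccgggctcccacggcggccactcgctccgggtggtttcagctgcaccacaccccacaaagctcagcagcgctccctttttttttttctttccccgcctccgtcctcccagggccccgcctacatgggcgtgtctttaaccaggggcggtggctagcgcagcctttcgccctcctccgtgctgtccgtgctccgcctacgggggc

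Pdk1 in control was at 11.3, 11.2 and 11.3 FPKM at ZT0, 9.45, 9.12 and 9.30 at ZT4, and 10.0, 16.2 and 16.4 at ZT8. It was at 18.1, 6.76 and 18.1 FPKM at ZT12, 13.7, 13.1 and 10.8 at ZT16, and 12.5, 14.0 and 12.9 at ZT20. The replicates were close together at ZT0 and ZT4 and spread widely at ZT12, where replicate 2 was the lowest of all 18. In IH it was at 10.5, 8.21 and 15.0 FPKM at ZT0, 18.2, 16.3 and 14.6 at ZT4, and 24.2, 24.0 and 18.1 at ZT8. At ZT12 it was at 14.9, 14.0 and 16.5 FPKM, at ZT16 at 15.6, 17.0 and 22.3, and at ZT20 at 15.8, 12.9 and 18.6. The IH values were all above the control values at ZT4, ZT8 and ZT16, and the ranges overlapped at ZT0, ZT12 and ZT20.

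At ZT4 and ZT8 together, Pdk1 was higher in IH by 0.69 (SE 0.11, adjusted p = 0.012, n = 6 per condition, higher in 6 of 6), the largest difference among the 9, with a ratio of mean FPKM of 1.64. Pdk1, Pdk2 and Pdhb were the 3 of 9 genes called higher in this comparison, in which 6.05% of all genes were called higher and 1.93% lower. With median of ratios scaling 458 of all genes were called higher and 459 lower, and Pdk1 and Pdk2 were still called. With no term for the time point none of the 3 passed (adjusted p = 0.085 for Pdk1, 0.11 for Pdk2 and 0.19 for Pdhb). In a fit of the ZT8 libraries alone none passed either (0.39, 0.41 and 0.62), while in a fit of the ZT4 libraries alone all 3 passed. No share of all genes is given for that fit of ZT4, so these passes have no background beside them. Over all time points the difference of Pdk1 was 0.38 (SE 0.10, adjusted p = 0.099, higher in 13 of 18). Without IH ZT0 replicate 2, control ZT12 replicate 1 or control ZT12 replicate 3, that adjusted p was 0.041, 0.039 and 0.043. No share of all genes is given for these omissions. Replicates 1 and 3 of control ZT12 were the highest control values. Without replicate 2 of that group, the lowest, the difference was 0.32 and was not called. Without the 3 libraries with high Saa1 the adjusted p was 0.035 (0.34, SE 0.09, where 1.19% of all genes were called higher).

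Pdk2 encodes the kinase that was the most abundant of the 3 in every library. It lies at chr11:95026258-95041354 (mm10, minus strand), where an antisense gene, Gm11513, overlaps it without sharing exonic bases. The bases before its first RefSeq start (chr11:95041372-95041621, GRCm38.p6, minus strand) hold 1 E-box, 126 bases before the start.
Pdk2: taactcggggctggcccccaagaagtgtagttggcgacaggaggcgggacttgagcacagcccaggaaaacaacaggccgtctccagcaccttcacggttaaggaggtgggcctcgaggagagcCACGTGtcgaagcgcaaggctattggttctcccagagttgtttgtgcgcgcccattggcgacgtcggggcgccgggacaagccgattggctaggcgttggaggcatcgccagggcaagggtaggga

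Pdk2 in control was at 55.4, 48.2 and 52.1 FPKM at ZT0, 45.4, 46.5 and 38.2 at ZT4, and 56.8, 62.4 and 64.6 at ZT8. It was at 62.1, 34.5 and 44.4 FPKM at ZT12, 39.8, 43.9 and 35.1 at ZT16, and 44.6, 54.2 and 60.5 at ZT20. The highest mean was at ZT8 and the lowest at ZT16, a ratio of 1.55 (1.46 without the 3 libraries with high Saa1). In IH it was at 35.2, 26.6 and 49.4 FPKM at ZT0, 66.6, 65.3 and 63.6 at ZT4, and 74.2, 79.0 and 65.2 at ZT8. At ZT12 it was at 48.9, 30.4 and 50.6 FPKM, at ZT16 at 44.3, 43.9 and 42.1, and at ZT20 at 47.2, 52.4 and 42.3. In IH the 6 values of ZT4 and ZT8 lay above the other 12, and the ratio of the highest to the lowest mean was 1.96 (1.72 without IH ZT0 replicate 2).

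At ZT4 and ZT8 Pdk2 was higher in IH by 0.41 (SE 0.08, adjusted p = 0.015, n = 6 per condition, higher in 6 of 6), with a ratio of mean FPKM of 1.32. At ZT0 the difference had the other sign, -0.52 (SE 0.19, adjusted p = 0.46), with 1 IH value inside the control range and the lowest in IH ZT0 replicate 2. The difference at ZT0 was -0.31 (SE 0.17, adjusted p = 0.66) without the 3 libraries with high Saa1. Over all time points it was 0.03 (SE 0.09, adjusted p = 0.92), and 0.04 (adjusted p = 0.88) without those libraries. Whether the profile over the 6 time points differed between the conditions was tested over all libraries (n = 36), and Pdk2 had P = 0.0067 (adjusted p = 0.18). By this test 0.136% of all genes were called and 14.2% had an unadjusted P under 0.05, and Pdk2 was the one gene of the 9 under that value. Without the 3 libraries with high Saa1 (n = 33), 5 of the 9 were under it, against 19.6% of all genes, and none passed the adjusted test. These were Pdk2 (P = 0.0035, adjusted p = 0.091, n = 33), Pdk1 (P = 0.0038, adjusted p = 0.093, n = 33), Dlat (P = 0.010, adjusted p = 0.14, n = 33), Pdhb (P = 0.023, adjusted p = 0.19, n = 33) and Pdha1 (P = 0.026, adjusted p = 0.20, n = 33).

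Pdk4 encodes the kinase best known for its induction by fasting, through PPARα and glucocorticoids. It lies at chr6:5483351-5496309 (mm10, minus strand). The bases before its RefSeq start (chr6:5496310-5496528, GRCm38.p6, minus strand) hold none of the marked motifs.
Pdk4: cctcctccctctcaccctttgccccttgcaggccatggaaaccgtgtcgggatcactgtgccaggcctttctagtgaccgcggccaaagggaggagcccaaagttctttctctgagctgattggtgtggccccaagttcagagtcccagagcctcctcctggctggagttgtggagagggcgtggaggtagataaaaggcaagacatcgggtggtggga

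Pdk4 had by far the widest daily range of the 9. In control it was at 4.4, 2.47 and 3.71 FPKM at ZT0, 2.84, 2.28 and 1.36 at ZT4, and 0.354, 0.647 and 0.626 at ZT8. It was at 0.514, 0.265 and 0.425 FPKM at ZT12, 2.31, 2.90 and 1.34 at ZT16, and 5.01, 5.31 and 4.51 at ZT20. All values at ZT8 and ZT12 were thus below 1 FPKM, and all at ZT20 above those of every other time point. In IH it was at 3.30, 4.13 and 4.45 FPKM at ZT0, 3.93, 1.27 and 0.967 at ZT4, and 0.587, 0.538 and 0.362 at ZT8. At ZT12 it was at 0.568, 1.03 and 1.19 FPKM, at ZT16 at 2.77, 1.72 and 4.07, and at ZT20 at 5.88, 4.03 and 4.12. The IH values were above the control values at ZT12 and overlapped them at the other 5 time points.

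The highest group mean of Pdk4 was 12.3 times the lowest in control and 9.44 times in IH, and no other of the 9 genes went beyond 1.97 times in either. The ratio of Pdk4 in control was 10.5 without the 3 libraries with high Saa1. A cosine of 24 h fitted to log2(FPKM + 1) peaked at ZT21.8 in control (SE 0.33 h, P = 3.8e-09, limma moderated F test, n = 18) and at ZT21.1 in IH (SE 0.43 h, P = 2.7e-07). The amplitude of that cosine was 1.05 in control (SE 0.09) and 0.97 in IH (SE 0.11). Since Pdk4 is near the pseudocount of 1, the amplitude depended on it, and with a pseudocount of 0.1 it was 1.7 and 1.5. The difference at ZT12 was 0.45 (SE 0.26, adjusted p = 0.27) and that over all time points 0.10 (SE 0.10, adjusted p = 0.73). These were 0.38 (SE 0.29, adjusted p = 0.54) and 0.03 (adjusted p = 0.93) without the 3 libraries with high Saa1.

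Pdp2 encodes the catalytic subunit of one of the phosphatases that reactivate the complex (chr8:104591451-104599026, mm10, plus strand). In control it ran from 0.905 to 3.55 FPKM (median 2.63), with the lowest value in control ZT12 replicate 2 and the next at 2.08. In IH it ran from 1.68 to 2.85 FPKM (median 2.44). At ZT8 the IH values (2.41, 2.51 and 2.52 FPKM) were all below those of control (3.55, 2.92 and 3.09). At ZT4 and ZT8 the difference was -0.19 (SE 0.07, adjusted p = 0.11), and IH was above control in 1 of 6 pairs. Over all time points it was -0.06 (SE 0.06, limma adjusted p = 0.75), and -0.12 (SE 0.04, adjusted p = 0.15) without the 3 libraries with high Saa1. None of the 9 genes was called lower in IH at ZT4 and ZT8.

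**Figure D2:**
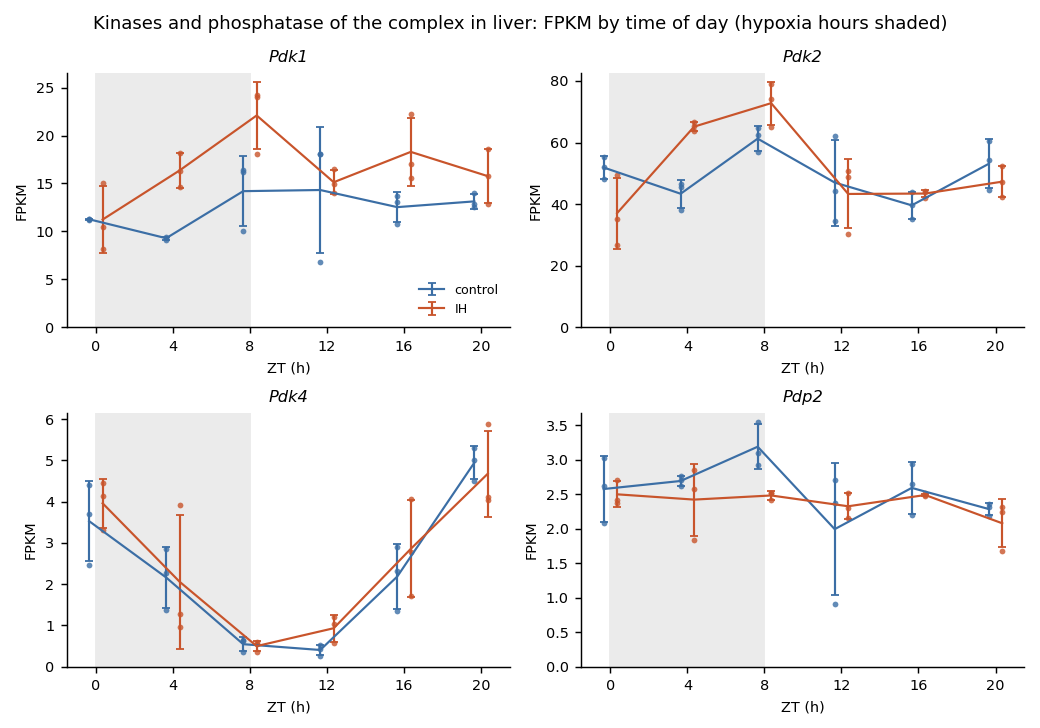
FPKM of the 3 kinases and of Pdp2 (vertical axes, from 0) against ZT in hours, with each mouse as a point, and the mean and SD of 3 mice as lines with bars for control (blue) and IH (orange); hours of hypoxia are shaded. Pdk1 and Pdk2 separate by condition at ZT4 and ZT8, the curves of Pdk4 run together from a low at ZT8 and ZT12 to a high at ZT20, and Pdp2 lies lower in IH at ZT8.

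Taken at each time point alone, 1 of the 54 pairs of gene and time point passed, Pdhb at ZT4 (0.41, SE 0.09, adjusted p = 0.022), where 0.885% of all genes were called higher and 0.272% lower, or 1.16% in all. At ZT12 0.772% of all genes were called in either direction, at ZT8 and at ZT16 0.00757%, and at ZT0 and ZT20 none. The call of Pdhb was lost without any of the IH ZT4 libraries and without control ZT4 replicate 2 or 3, up to an adjusted p of 0.10, and under each of the 3 rescalings. At the same time point Pdk1 differed by 0.75 (SE 0.24, adjusted p = 0.10) and Pdk2 by 0.58 (SE 0.19, adjusted p = 0.11). The 6 contrasts share 1 estimate of the spread, so the wide group at control ZT12 bears on all of them. Without control ZT12 replicate 2, 4 pairs passed, all at ZT4: Pdha1 (adjusted p = 0.049), Pdhb (0.0085), Pdk1 (0.015) and Pdk2 (0.044), where 6.05% of all genes were called in either direction at ZT4. Without all 3 libraries with high Saa1 the 4 pairs were those again (adjusted p from 0.00098 to 0.024), where 10.2% of all genes were called in either direction at ZT4.

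The count of genes whose 3 IH values all lay above the 3 control values was highest at ZT4, where it was 5 of 9 (Pdha1, Pdhb, Dlat, Pdk1 and Pdk2) against 26.7% of all genes. It was 2 of 9 at ZT0 against 4.59%, 2 at ZT8 against 11%, 2 at ZT12 against 6.34%, 3 at ZT16 against 10%, and 0 at ZT20 against 11.8%. The IH values all lay below the control values for Pdhx and Pdp2 at ZT8, against 7.16% of all genes, and for none of the 9 at ZT0, ZT4, ZT12, ZT16 and ZT20, against 6.21%, 7.79%, 6.74%, 3.84% and 4.18%. ZT0, ZT12 and ZT16 hold the 3 libraries with high Saa1, and without these the IH values were all above for 3 of 9 at ZT0 (9.16% of all genes), 2 at ZT12 (9.32%) and 3 at ZT16 (14.3%). They were then all below for 0 of 9 at ZT0 (8.37% of all genes), for Dlat and Pdk1 at ZT12 (19%) and for Pdp2 at ZT16 (11.7%).

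**Figure D3:**
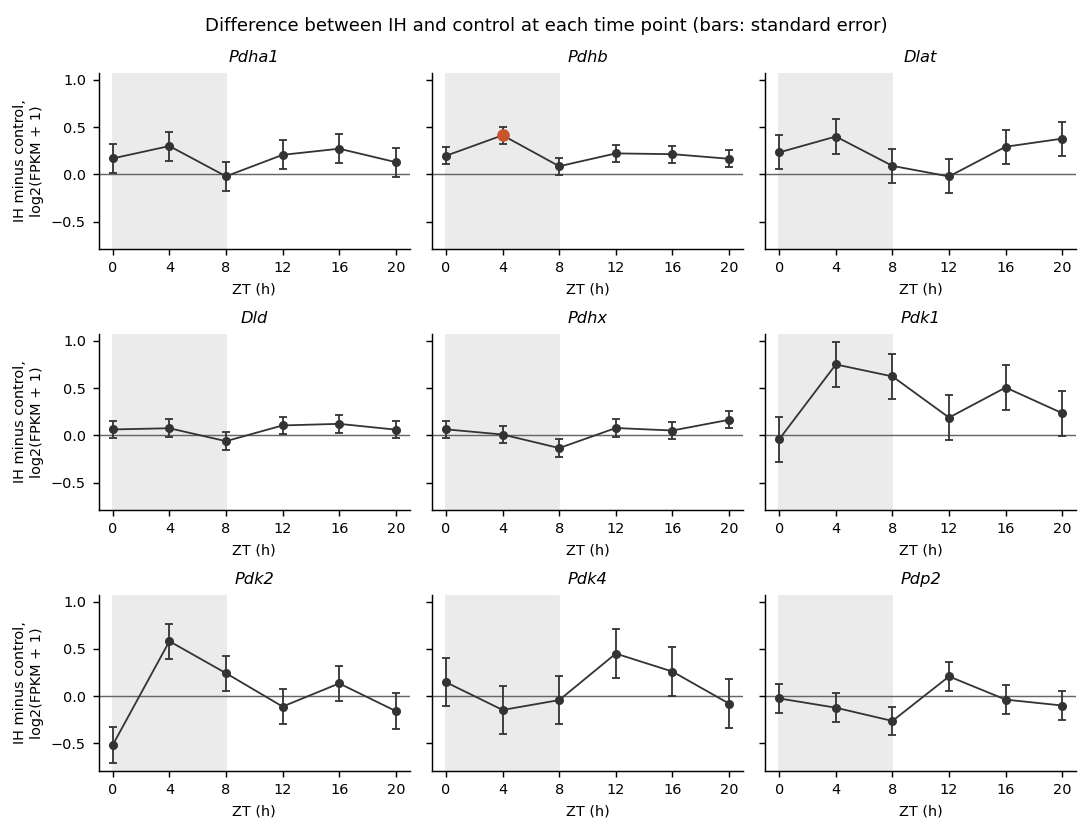
Difference of IH minus control in log2(FPKM + 1) (vertical axes) at each ZT in hours (horizontal axes) for the 9 genes, with its standard error from 1 fit over 36 libraries; the orange point marks the adjusted p under 0.05 and hours of hypoxia are shaded. Pdk1 and Pdk2 stand highest at ZT4, at 0.75 and 0.58, Pdk2 is at -0.52 at ZT0, and Pdhb is above 0 at all 6 time points.

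The 3 kinases were also summed within each library, as a description of what the mixture held. At ZT4 the control sum averaged 54.8 ± 5.12 FPKM (SD, n = 3) and the IH sum 83.6 ± 4.82, and at ZT8 they averaged 76.0 ± 7.71 and 95.4 ± 10.4. At ZT0 it was 66.7 ± 4.61 FPKM in control and 52.3 ± 15.2 in IH, or 58.9 without IH ZT0 replicate 2. The mean sums thus spanned a wider range over the day in IH than in control. Pdk2 made up between 67.4% and 80.8% of the sum in every group by mean. The share of Pdk4 was lowest at ZT8 in IH (0.515% ± 0.080) and at ZT12 in control (0.650% ± 0.022), and highest at ZT0 in IH (7.93% ± 2.31) and at ZT20 in control (7.03% ± 1.15). Without IH ZT0 replicate 2, at 10.6%, the IH mean at ZT0 was 6.60% and the highest was at ZT20 (6.90% ± 1.45), as in control. The ratio of Pdhb to Pdha1, the subunits of E1, which join in equal numbers in the protein, ran from 1.70 at ZT20 to 2.36 at ZT12 in control and from 1.74 at ZT20 to 2.28 at ZT12 in IH. The mean of control ZT12 held replicate 2, at 3.35. Without it that mean was 1.86, and the highest in control was at ZT8 (1.92).

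**Figure D4:**
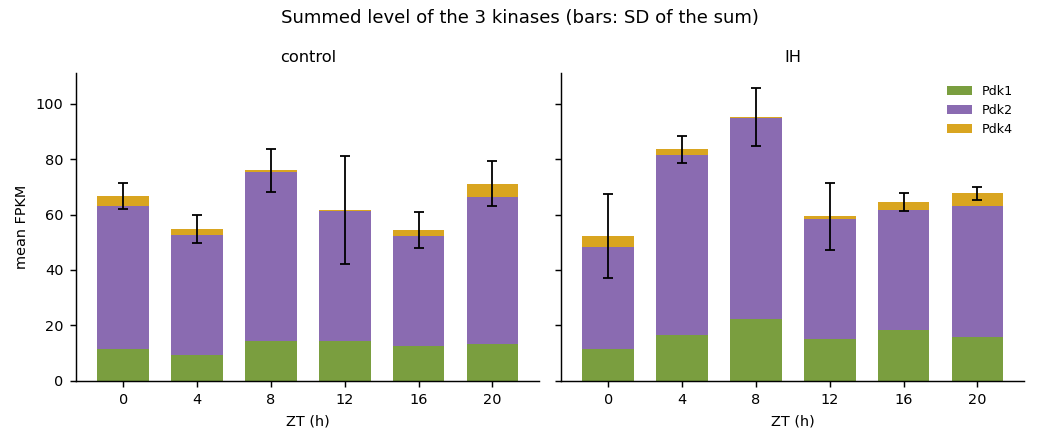
Mean FPKM of Pdk1, Pdk2 and Pdk4 stacked (vertical axis, from 0) at each ZT in hours, in control (left) and IH (right), with bars for the SD of the sum over 3 mice. Pdk2 is the largest layer throughout, Pdk4 is thinnest at ZT8 and ZT12, and the stacks at ZT4 and ZT8 reach 83.6 and 95.4 FPKM in IH against 54.8 and 76.0 in control.

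Rhythms were called at a P of 0.01 or less in each condition alone, from the cosine of 24 h. In control 3 of 9 genes passed, against 20% of all genes, and in IH 3 of 9, against 39.9%. They were Pdhb, Pdhx and Pdk4 in both conditions, against 15.5% of all genes rhythmic in both. Pdhb peaked at ZT11.6 in control (SE 0.66 h, P = 7.7e-05, n = 18) and at ZT10.9 in IH (SE 0.66 h, P = 8.7e-05). Pdhx peaked at ZT10.4 (SE 1.00 h, P = 0.0045, n = 18) and ZT12.8 (SE 0.94 h, P = 0.0028). The kinase Pdk4 and these subunits thus peaked in opposite parts of the day. Without the 3 libraries with high Saa1, Pdhb peaked at ZT12.0 and ZT10.7, Pdhx at ZT11.0 and ZT12.7, and Pdk4 at ZT21.5 and ZT21.1, in control and IH, and all 3 passed in both. The call of Pdhx in control was lost with JTK_Cycle (P = 0.042, n = 18), a rank test, and with a free mean at each time point (P = 0.017 in control and 0.027 in IH). The call of Pdhx in control was lost when any 1 of 7 control libraries was left out (ZT0 replicate 1, ZT8 replicates 2 and 3, ZT12 replicates 1 and 3, ZT20 replicates 1 and 3), with P of up to 0.0121 (n = 17), and its call in IH was lost without IH ZT0 replicate 3 (P = 0.0107, n = 17). With FPKM rescaled to a common sum, neither Pdhb (P = 0.022, n = 18) nor Pdhx (P = 0.18) passed in control.

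Other genes lay near the threshold. In IH (n = 18), Pdk2 had P = 0.017 with a fitted peak at ZT6.9 (SE 1.19 h), Dlat P = 0.033 and Pdk1 P = 0.055, and with a free mean at each time point Pdk2 (P = 7.7e-04) and Pdk1 (P = 0.0045) passed. No share of all genes is given for that free-mean test, so these passes have no background beside them. In control (n = 18) Pdk2, Dlat and Pdk1 had P = 0.50, 0.36 and 0.30 by the cosine. Without the 3 libraries with high Saa1, Pdha1 (P = 3.7e-04, n = 16) and Pdk1 (P = 0.0014) passed in control, which made 5 of 9 against 27.4% of all genes, and Pdk2 (P = 0.0044, n = 17) passed in IH, which made 4 of 9 against 42.4%. Leaving out control ZT12 replicate 2 alone also gave 5 of 9 in control, with the same genes added, against 27.1% of all genes. Passing in one condition does not show that the conditions differ, so the cosine was also compared between them in 1 fit over 36 libraries. In that test limma called 0 of the 9 genes (adjusted p from 0.92 to 0.98) and 0 of all genes, with 4.91% of all genes at an unadjusted p under 0.05. The smallest interaction P among the 9 was 0.16, for Pdhx (n = 36), and the phase of Pdk4 differed by -0.73 h (SE 0.54). Without the 3 libraries with high Saa1 (n = 33), 3 of the 9 had an unadjusted p under 0.05, against 10.7% of all genes. They were Dlat (P = 0.010, n = 33), Pdha1 (P = 0.015, n = 33) and Pdhb (P = 0.048, n = 33). Of the 9 and of all genes 0 were called after adjustment in that setting too (adjusted p of the 9 from 0.40 to 0.90), and the phase of Pdk4 differed by -0.45 h (SE 0.57).

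The genes around the complex were described from lists of the same pathway. Of the other regulators, the kinase Pdk3 (0.118 FPKM in control, 0.134 in IH), the phosphatase Pdp1 (0.180 and 0.198) and the phosphatase regulator Pdpr (0.112 and 0.105) were near the filter, and none passed a test of level, with a median difference of 0.01 at ZT4 and ZT8. The testis form of E1α, Pdha2, was listed at 0. In the median the 9 genes differed by 0.14 at ZT4 and ZT8 and by 0.10 over all time points, beside 0.04 and 0.03 over all genes tested.

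Of 11 genes that supply or compete for pyruvate, 3 were called higher and 1 lower in IH at ZT4 and ZT8, and the median difference was 0.22. Pklr, the liver pyruvate kinase that makes pyruvate, was higher by 0.82 (SE 0.15, adjusted p = 0.014), and it was also higher over all time points (0.71, SE 0.12, adjusted p = 0.0018, mean 93.5 FPKM in control and 156 in IH). Gpt2 and Gpt, which exchange pyruvate with alanine, were higher by 0.44 (adjusted p = 0.021) and 0.20 (adjusted p = 0.046). Ldha, which exchanges pyruvate with lactate, was lower (-0.38, SE 0.07, adjusted p = 0.015), and lower in all 6 pairs. The mitochondrial pyruvate carrier genes Mpc1 (0.20, adjusted p = 0.14) and Mpc2 (0.22, adjusted p = 0.094) and pyruvate carboxylase, Pcx (0.11, adjusted p = 0.16), did not pass.

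Of 10 genes tested that supply thiamine or lipoate, the cofactors of E1 and E2, Glrx5 of iron-sulphur cluster assembly was higher (0.21, SE 0.05, adjusted p = 0.028) and Iba57 of the same assembly lower (-0.19, SE 0.05, adjusted p = 0.034) at ZT4 and ZT8, and the median was 0.04. Of 11 tested genes of the sister complexes, which act on other α-ketoacids or on glycine, 1 was higher, Dhtkd1 of lysine breakdown (0.37, SE 0.08, adjusted p = 0.026), and the median was -0.02. The E1α gene of the branched-chain complex, Bckdha, differed by 0.23 (adjusted p = 0.053). Of the same list, Gldc differed by -0.29 (adjusted p = 0.088) and Dlst by -0.13 (adjusted p = 0.11), so none of these passed. Of 12 genes listed for PPARα, which were Ppara itself and targets that share a fasting response with Pdk4, none was higher. Plin2, a lipid droplet coat protein, was lower (-0.56, SE 0.12, adjusted p = 0.022), and the median of the 12 was 0.13. Of 11 tested targets of HIF, the class to which Pdk1 belongs, Bnip3 of mitophagy was higher (0.65, SE 0.11, adjusted p = 0.014), and the median was 0.13. Vegfa (0.20, adjusted p = 0.14) and Egln3 (0.13, adjusted p = 0.48) did not pass. Nor did Slc2a1 (-0.23, adjusted p = 0.27), Ddit4 (-0.10, adjusted p = 0.75) and P4ha1 (-0.014, adjusted p = 0.94), which had the other sign.

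**Figure D5:**
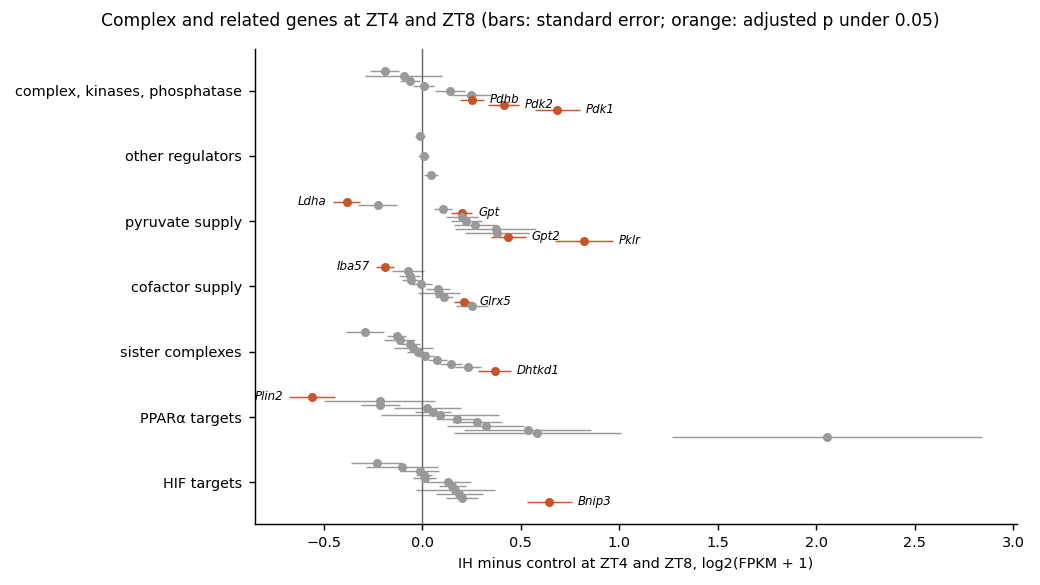
Difference of IH minus control at ZT4 and ZT8 in log2(FPKM + 1) (horizontal axis, 6 mice per condition) with its standard error, for each tested gene of the complex and of 6 related lists (rows); orange marks an adjusted p under 0.05 and carries the gene name. Pdk1, Pdk2 and Pdhb lie right of 0 at 0.69, 0.41 and 0.25, Pklr at 0.82 and Bnip3 at 0.65, the grey point farthest right is Cyp4a14 at 2.06, while Plin2 and Ldha lie left of it at -0.56 and -0.38.

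The genes with the most similar profile were sought over the 12 group means, among the 9804 tested genes that averaged 1 FPKM or more. Pdk4 was matched best by Lgalsl (Pearson r = 0.98), Stx7 (0.98) and Cgn (0.97), and Pdk2 by BC024386 (0.97), Fam134a (0.96) and Cbx7 (0.95). Pdhb was matched best by Paip1 (0.96), Ddhd2 (0.95) and Rab4a (0.95). For Pdk1 they were Idh3b (0.93), a subunit of isocitrate dehydrogenase, Cyp46a1 (0.91) and Sdhc (0.91), a subunit of succinate dehydrogenase. Sdhc was also among those of Pdha1 (0.89), with Gbe1 (0.94) and Adk (0.88). For Dlat they were Tom1 (0.89), Spag7 (0.87) and Col6a1 (0.87), and for Dld Rab10 (0.95) and Fam8a1 (0.92). For Pdhx they were Riok3 (0.91), Lrpprc (0.90) and Tbrg4 (0.90), and for Pdp2 Mtmr9 (0.89), Dock4 (0.89) and Them7 (0.87). These values describe 12 points that share libraries and the best of many candidates. With the 3 libraries with high Saa1 left out, 9 of the 27 best matches were again among the best 3 of their gene, and the lowest r among the 27 was 0.73.

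Upstream sequences from RefSeq were read for all 9 genes, in 11 windows of 250 bases before a start, since Pdk1 and Pdk2 each have a pair of starts. Besides the motifs marked in the printed sequences, the full site of CREB (TGACGTCA), the D-box (TTATGTAA or TTACGTAA), the core of the ROR element (TAGGTCA) and the GC box (GGGCGG) were searched on both strands. The E-box CACGTG, which contains ACGTG on each strand, was in the windows of Pdk2 and Pdp2 and in 6.02% of 32851 windows of all genes. ACGTG was also in that of Pdhb, overlapping a TGACG, and in 16.6% of all windows. TGACG was in the windows of Pdhb, Dlat and Pdp2 and in 17.8% of all. The GC box was in those of Pdhb, Dlat, Pdhx, Pdk1 and Pdp2 and in 32.7% of all, and none of the others was found in the 11 windows, where they were in 1.55% (TGACGTCA), 0.819% and 0.113% (the D-box forms) and 2.23% (TAGGTCA) of all. Of the 4 printed windows, those of Pdk1 and Pdk4 hold none of the marked letters. A match, or the lack of one, is a description of these letters and says nothing of binding.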

How the data were processed

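RNA of 36 mouse livers was sequenced by the authors from polyadenylated, strand-marked libraries as paired-end reads. They aligned the reads to mm10 with TopHat2 2.1.1 and quantified them with Cufflinks 2.2.1 (versions per the submitters' processing notes), which gave the deposited FPKM values per gene symbol and library, scaled to transcript length and library size. Which gene annotation was used, whether samples were scaled to one another and whether strand was used are not given in the sources used here. Groups came from the sample labels. The tables of both conditions use the same column names, so their condition was read from how the tables are named. No column was left out (0). Of 24346 symbols, 280 on repeated rows were left out. The files hold no counts. Low FPKM values were taken to step in whole reads. From the commonest ratio of values under 0.1 FPKM, the depth relative to IH ZT0 replicate 1 was estimated at between 0.783 and 1.32. As few as 6.83% of the low values of a library lay within 0.01 of that ratio on the log2 scale, so the estimate is rough. The absolute depth, and with it the precision of low values, is unknown. Replicates correlated with r of at least 0.987 on the log2 scale, except at control ZT12 (0.967).

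Values were analysed as log2(FPKM + 1) for the 13215 genes that averaged at least 0.1 FPKM, in R 4.3.3 with limma 3.58.1 and an intensity trend, over the whole table. A cosine of 24 h gave the rhythm tests (P of 0.01), and IH minus control, with time point as a factor, the differences, with Benjamini-Hochberg adjustment over all genes (0.05). Single time points were contrasts of 1 fit, and the difference of rhythms an interaction. BIO_CYCLE and Cyber-T, which the authors used, were not used here. The scripts were tested on simulated data. Same-numbered mice are independent animals, and their residuals correlated by 0.054 on average (over 0.1 in 6 of 18 pairs), so tests were unpaired. The members and lists were chosen with earlier results of these data known. Named genes were the 9 members, the 3 best-matching profiles of each (1 is not reported here), and the genes of the lists, described by counts and named where they passed or bear on the pathway; the list genes named without passing were picked after their values were seen. Coordinates are from GENCODE on GRCm38 (mm10), upstream sequences from RefSeq on GRCm38.p6, shown without bases inside the annotated gene. Alternatives were other scalings, filters, pseudocounts, rhythm tests, sample weights, time factors, the replicate block and each library left out. Omitting the 3 libraries whose Saa1 exceeded 10000 FPKM, removing the length trend and summing repeated symbols were added after the data were seen. Figures were drawn with Python and matplotlib.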

Additional observations from a re-analysis of the deposited data

How the results depend on the processing

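Of the 9 genes, 3 were rhythmic in control, and this count was 1 with FPKM rescaled to a common sum (18.3% of all genes), 6 with sample weights (35.6% of all genes), 5 without the 3 libraries with high Saa1, and 2 to 5 with each library left out (5 without control ZT12 replicate 2). The count of genes higher over all time points was 1, and it was 2 with sample weights (3.46% of all genes) and without those 3 libraries, and 1 to 3 with each library left out (2 without IH ZT0 replicate 2 or control ZT12 replicate 3, 3 without control ZT12 replicate 1, 1 without control ZT12 replicate 2). For this count, no share of all genes is given with single libraries left out. The 3 genes higher at ZT4 and ZT8 were 3 at ZT4 alone (no share of all genes is given for that fit), 0 at ZT8 alone and 0 with no time factor, and 2 to 3 with each library left out. The 1 pair of gene and time point (0.324% of pairs over all genes) was 0 with each of the 3 rescalings, 6 with sample weights (4.48% of pairs), 4 without the 3 libraries (1.7% of pairs), and 0 to 4 with each library left out (0 without any IH ZT4 library or control ZT4 replicate 2 or 3, 4 without control ZT12 replicate 2). The causes were not tested. With the replicate block these counts stayed at 3, 1, 3 and 1, and it moved no other count. The counts of genes lower in IH or with a differing cosine were 0 in every alternative that gave a value.

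No difference that passed its test changed sign. Differences near 0 did. That of Dld at ZT4 and ZT8 was 0.0063, and -0.013 with a common sum, -0.059 with median of ratios, -0.051 with quantile normalization, -0.033 with sample weights, -0.035 with the length trend removed, -0.062 at ZT8 alone and -0.026 to 0.034 with each library left out. At ZT4 and ZT8, Pdha1 was at -0.020 at ZT8 alone, Pdhx at 0.0081 at ZT4 alone and Pdk4 at -0.27 to 0.025 with each library left out. Over all time points, Pdhx was at -0.0040 with median of ratios and -0.0044 with sample weights, Pdk2 at -0.016 with median of ratios, -0.0046 with quantile normalization and -0.0017 to 0.077 with each library left out, and Pdk4 at -0.032 with sample weights. Of 3 mice per group, 1 that stands apart widens every test that uses its group, and without counts the noise of Pdk4 and Pdp2 at their lowest cannot be computed.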
